A study of Mus musculus with 9 samples.

Results

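PRC1.6 is a form of Polycomb repressive complex 1 that keeps germline and meiotic genes silent outside the germline. Its 9 genes followed here are *Mga*, *Max*, *E2f6*, *Pcgf6*, *L3mbtl2*, *Rybp*, *Yaf2*, *Rnf2*, and *Ring1*. They were chosen by symbol from known subunits of the complex. All 9 were found among the 25239 gene symbols counted, and all 9 passed the filter on low counts that left 14125 genes to test. The question was whether the mRNA of these repressors was lower in *Rbbp4* mutant cells in which germline genes were raised.

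The subunits of PRC1.6 divide the work of finding and modifying chromatin. MGA and MAX form a dimer that recognises E-box and T-box DNA, and E2F6 with its partner TFDP1 recognises E2F sites. PCGF6 is the subunit that tells this complex apart from other forms of Polycomb repressive complex 1. RNF2 and RING1 are alternative ubiquitin ligases for histone H2A, RYBP and YAF2 are alternative adaptors bound to them, and L3MBTL2 carries MBT domains that bind chromatin. In mouse embryonic stem cells (ESCs), loss of *Max*, *Mga*, *Pcgf6*, or *E2f6* is known to release genes of meiosis and germ cells.

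The study sequenced mRNA of E14 mouse ESCs grown in serum with leukemia inhibitory factor. Control ESCs were *Rbbp4* +/+, *Rbbp4* Ins/Ins ESCs had a short in-frame insertion on each allele, and *Rbbp4* Ins/Del ESCs had this insertion on one allele and an in-frame deletion on the other. RBBP4 is a histone-binding WD40 protein shared by Polycomb repressive complex 2, histone deacetylase complexes, and other chromatin complexes. Each mutant line was 1 clone made with CRISPR-Cas9, so an effect of the mutation and of the clone cannot be told apart, and each line had 3 libraries that no source describes as separate cultures. P-values therefore measure the spread between these libraries, which may be technical.

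Library totals lay between 15838064 and 21366868 counted reads. *Rbbp4* itself had 9932 to 10117 normalized counts in control libraries, 5485 to 5776 in Ins/Ins libraries, and 10129 to 10603 in Ins/Del libraries. Its mRNA thus cannot check the label of the Ins/Del line, whose mutation is in frame. The summed level of 7 pluripotency markers was 58317 to 61767 normalized counts in control libraries, 78213 to 78968 in Ins/Ins, and 78885 to 81637 in Ins/Del, and *Pou5f1*, *Nanog*, and *Sox2* were among those measured in every library. Of these 7 markers 5 rose in both mutant lines. *Pou5f1* fell in Ins/Ins (log2 fold change −0.12, adjusted p = 0.000203 by edgeR's quasi-likelihood test) and did not pass the threshold in Ins/Del (−0.03). *Sox2* rose in Ins/Ins (0.12) and did not pass in Ins/Del (0.02). Over all tested genes, 25.6% rose in both lines and 26.7% fell in both, which also holds beside the marker counts below.

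Markers of other cell types that such cultures can hold were summed in the same way. The 5 fibroblast markers summed to 591 to 677 normalized counts in control libraries, 269 to 305 in Ins/Ins, and 377 to 404 in Ins/Del. Of these, 3 were lower and 1 higher in both lines, and *Pdgfra* was higher in Ins/Del alone. *Col3a1* was at 0 in 3 mutant libraries. The 5 primitive endoderm markers summed to 340 to 368, 188 to 248, and 271 to 303, with 2 lower and 1 higher in both lines. In Ins/Del alone, *Gata6* and *Sox17* also rose. The 4 trophectoderm markers, of which *Elf5* did not pass the filter on low counts, summed to 1325 to 1376, 1756 to 1844, and 1071 to 1176. Most of this sum was *Tfap2c*, which rose in Ins/Ins and fell in Ins/Del (log2 fold changes 0.48 and −0.21), while *Cdx2* fell in both lines (−3.60 and −3.58) and *Gata3* fell in Ins/Ins (−0.90) and missed the threshold in Ins/Del (−0.46). The part of these shifts in the changes below was not tested.

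Promoters of 6 germline genes are printed because they hold, or share, the E-box and E2F letters that the DNA-binding subunits recognise, and because the genes went in different directions. Each line gives the 150 bases before the RefSeq transcription start in build GRCm38.p6, 5′ to 3′ on the strand of the gene. Capitals mark CACGTG, the E-box, and GGCGGGA or its reverse complement TCCCGCC, an E2F site.
*Hormad1*, chr3:95559527-95559676, plus strand: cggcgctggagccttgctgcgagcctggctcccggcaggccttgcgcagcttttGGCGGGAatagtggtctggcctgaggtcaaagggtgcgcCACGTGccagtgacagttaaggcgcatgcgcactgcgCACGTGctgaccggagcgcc
*Tuba3a*, chr6:125286082-125286231, minus strand: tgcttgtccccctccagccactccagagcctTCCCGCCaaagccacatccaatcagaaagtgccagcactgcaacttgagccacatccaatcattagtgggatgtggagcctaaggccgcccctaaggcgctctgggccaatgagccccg
*Tuba3b*, chr6:145615813-145615962, plus strand: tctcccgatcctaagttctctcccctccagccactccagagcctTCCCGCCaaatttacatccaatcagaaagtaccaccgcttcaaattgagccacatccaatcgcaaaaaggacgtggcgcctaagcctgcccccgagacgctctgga
*Fkbp6*, chr5:135350045-135350194, minus strand: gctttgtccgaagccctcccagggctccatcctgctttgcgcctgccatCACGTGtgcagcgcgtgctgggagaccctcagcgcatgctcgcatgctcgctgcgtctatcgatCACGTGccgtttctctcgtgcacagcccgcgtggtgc
*Ddx4*, chr13:112652311-112652460, minus strand: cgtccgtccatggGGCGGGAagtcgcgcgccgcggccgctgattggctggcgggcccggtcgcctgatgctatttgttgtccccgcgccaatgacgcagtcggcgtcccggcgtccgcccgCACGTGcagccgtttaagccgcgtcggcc
*Sycp3*, chr10:88459437-88459586, plus strand: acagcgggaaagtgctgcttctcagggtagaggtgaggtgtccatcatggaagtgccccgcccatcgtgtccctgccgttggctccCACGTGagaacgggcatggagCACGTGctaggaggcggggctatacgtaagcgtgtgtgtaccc

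The repressor genes did not move together. *Mga* rose and *E2f6* and *Yaf2* fell in both mutant lines, *Max* passed the threshold in Ins/Del and not in Ins/Ins, and *Pcgf6*, *L3mbtl2*, *Rybp*, *Rnf2*, and *Ring1* passed the threshold in neither line. The threshold was an adjusted p of at most 0.01 in edgeR's quasi-likelihood test after Benjamini-Hochberg adjustment over all 14125 tested genes. Thus 3 of the 9 passed in Ins/Ins and 4 of the 9 in Ins/Del, where 58.4% and 62.5% of all tested genes did, and the members' share was not above this background. In bulk RNA, fewer cells of a type and less RNA per cell cannot be told apart, and this holds for each change given here.

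**Figure D1:**
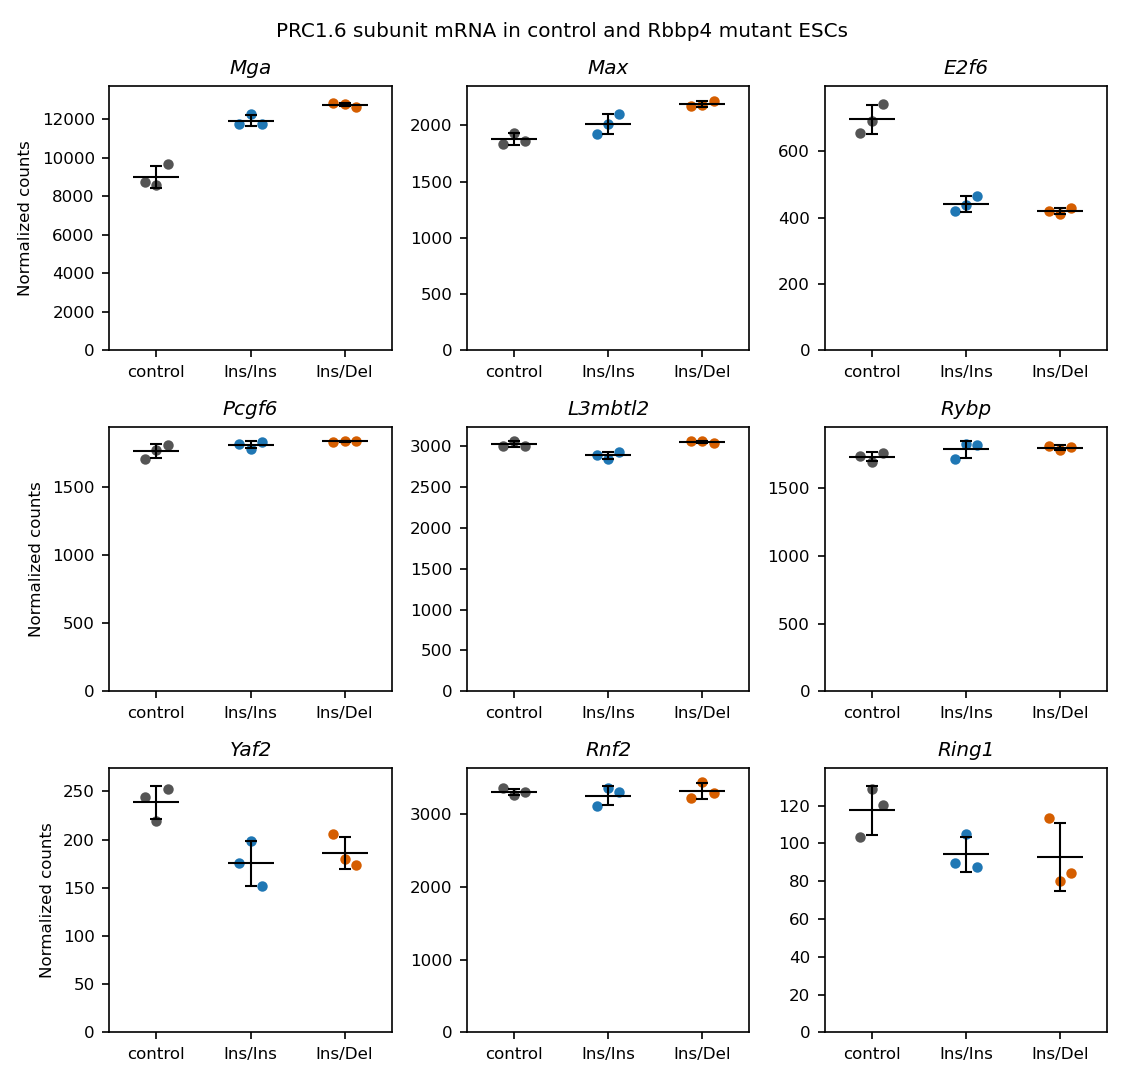
Normalized counts of the 9 PRC1.6 genes in each library, with one panel per gene and a linear y axis that starts at 0. Points are the 3 libraries of control, Ins/Ins, and Ins/Del ESCs, horizontal bars are means, and whiskers are the SD. *Mga* libraries of both mutants lie above the control libraries, *E2f6* and *Yaf2* libraries lie below them, and the *Rnf2* libraries of the 3 lines overlap.

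*Mga* (chromosome 2, 119897228 to 119969581, plus strand, GRCm38) encodes the scaffold of the complex, a protein with both a T-box and a basic helix-loop-helix domain. Normalized counts were 8753, 8597, and 9662 in control libraries, 11759, 12275, and 11781 in Ins/Ins libraries, and 12845, 12802, and 12668 in Ins/Del libraries. Every mutant library was above every control library. The means were 9004 ± 575, 11938 ± 292, and 12772 ± 92.0 (SD, n = 3 each), which put *Mga* 32.6% above control in Ins/Ins and 41.9% above control in Ins/Del. The log2 fold changes were 0.41 (SE 0.0318, adjusted p = 2.87e-14 by edgeR's quasi-likelihood test) and 0.50 (SE 0.0317, adjusted p = 3.61e-17).

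*Max* (chromosome 12, 76937269 to 76962201, minus strand) encodes the dimer partner of MGA, which also pairs with MYC and MXD proteins. Control libraries had 1839, 1936, and 1865 normalized counts, Ins/Ins libraries had 1921, 2009, and 2101, and Ins/Del libraries had 2170.3, 2181, and 2219. All Ins/Del libraries were above all control libraries, whereas the lowest Ins/Ins library was below the highest control library. The increase was 6.92% in Ins/Ins (log2 fold change 0.10, SE 0.0383, adjusted p = 0.0269 by edgeR's quasi-likelihood test) and 16.5% in Ins/Del (log2 fold change 0.22, SE 0.0380, adjusted p = 2.94e-06). In Ins/Ins the gene passed the threshold without control replicate 2 (adjusted p = 0.00794 in edgeR's quasi-likelihood test) and without Ins/Ins replicate 1 (adjusted p = 0.00332). The direct test between the mutant lines gave a difference of 0.13 in log2 (adjusted p = 0.0159), which missed the threshold.

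*E2f6* (chromosome 12, 16810963 to 16839742, plus strand) encodes an E2F protein that lacks the activation domain of other E2F proteins and represses its targets. It had 657, 691, and 743 normalized counts in control libraries, 421, 438, and 466 in Ins/Ins libraries, and 421, 411, and 429 in Ins/Del libraries. All mutant libraries were below all control libraries, and the mutant lines overlapped each other. The means were 697 ± 43.3, 442 ± 22.9, and 420.3 ± 9.39 (SD, n = 3 each), so that *E2f6* fell by 36.6% in Ins/Ins and fell by 39.7% in Ins/Del. Its log2 fold changes were −0.66 (SE 0.0625, 95% interval −0.78 to −0.53) and −0.73 (SE 0.0632, 95% interval −0.86 to −0.60), with adjusted p = 7.04e-12 and 4.87e-13 by edgeR's quasi-likelihood test. This was the largest change among the 9 genes in both contrasts. Of all 14125 tested genes, 26.4% changed by more than *E2f6* in Ins/Ins and 26.9% changed by more in Ins/Del.

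The tested genes whose counts followed *E2f6* most closely over the 9 libraries were *Diaph2*, *Trmt1l*, and *Fubp1*. Likeness was the Euclidean distance between log2 normalized counts centred per gene, and the distances were 0.159, 0.164, and 0.167. *Diaph2* had log2 fold changes of −0.61 in Ins/Ins and −0.69 in Ins/Del, *Trmt1l* of −0.62 and −0.68, and *Fubp1* of −0.62 and −0.72.

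*Pcgf6* (chromosome 19, 47033617 to 47050906, minus strand), which encodes the defining subunit, was nearly level. It had 1709, 1777, and 1811 normalized counts in control libraries, 1818, 1784, and 1834 in Ins/Ins libraries, and 1835, 1843, and 1842 in Ins/Del libraries. Ins/Ins and control libraries overlapped, and Ins/Del libraries were all above the control libraries by a small margin. Log2 fold changes were 0.04 (95% interval −0.04 to 0.12, adjusted p = 0.356 by edgeR's quasi-likelihood test) and 0.06 (95% interval −0.01 to 0.14, adjusted p = 0.142).

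*Rnf2* (chromosome 1, 151458004 to 151500955, minus strand) encodes RING1B, the more abundant of the paired ubiquitin ligases in ESCs. The libraries had 3347, 3259, and 3299.9 normalized counts in control, 3108, 3348, and 3295 in Ins/Ins, and 3218, 3439, and 3287 in Ins/Del, and the 3 lines overlapped. The log2 fold changes were −0.02 (95% interval −0.09 to 0.04, adjusted p = 0.53 by edgeR's quasi-likelihood test) and 0.01 (95% interval −0.06 to 0.08, adjusted p = 0.883). Of its exonic bases, 3.83% overlap exons of *Trmt1l* on the other strand, a gene that was lower in both mutant lines, and reads there cannot be assigned without the strand setting.

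*Ring1* (chromosome 17, 34020792 to 34024680, minus strand) encodes RING1A and was the least counted of the 9. Its normalized counts were 103, 129, and 120.2 in control libraries, 89.8, 105, and 87.7 in Ins/Ins libraries, and 113, 80.3, and 84.5 in Ins/Del libraries. Each mutant line had 1 library above the lowest control library. Its log2 fold changes of −0.32 (SE 0.139, 95% interval −0.60 to −0.03) and −0.33 (SE 0.140, 95% interval −0.62 to −0.05) had adjusted p = 0.0437 and 0.0325 by edgeR's quasi-likelihood test and missed the threshold. Without Ins/Del replicate 1 the value was −0.50 (adjusted p = 0.0042 by edgeR's quasi-likelihood test).

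*Yaf2* (chromosome 15, 93284278 to 93336935, minus strand) and *Rybp* (chromosome 6, 100228565 to 100287485, minus strand) encode related adaptors that take the same place on RING1 proteins. *Yaf2* had 245, 219, and 252 normalized counts in control libraries, 175, 199, and 152 in Ins/Ins libraries, and 205, 179.6, and 174 in Ins/Del libraries. All mutant libraries were below all control libraries. *Yaf2* fell by 26.5% in Ins/Ins (log2 fold change −0.45, SE 0.101, adjusted p = 0.000182 by edgeR's quasi-likelihood test) and fell by 21.95% in Ins/Del (log2 fold change −0.36, SE 0.100, adjusted p = 0.0018). The Ins/Del value missed the threshold with DESeq2 (adjusted p = 0.0156) and, in edgeR's quasi-likelihood test, without control replicate 3 (adjusted p = 0.0128), without Ins/Del replicate 2 (adjusted p = 0.013), and without Ins/Del replicate 3 (adjusted p = 0.0126).

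*Rybp* had 1737, 1698, and 1765 normalized counts in control libraries, 1716, 1828, and 1824 in Ins/Ins libraries, and 1815, 1782, and 1808 in Ins/Del libraries. Its Ins/Ins libraries overlapped the control libraries, and its Ins/Del libraries were above them. Log2 fold changes were 0.04 (95% interval −0.03 to 0.12, adjusted p = 0.318 by edgeR's quasi-likelihood test) and 0.06 (95% interval −0.02 to 0.13, adjusted p = 0.195).

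The balance within the adaptor pair was taken as the log2 ratio of *Rybp* to *Yaf2* counts in each library, which does not depend on how libraries are scaled. It was 2.83, 2.96, and 2.81 in control libraries, 3.29, 3.20, and 3.58 in Ins/Ins libraries, and 3.14, 3.31, and 3.38 in Ins/Del libraries. Each mutant ratio was above each control ratio, with differences in means of 0.49 and 0.41. The exact two-sided permutation test gave p = 0.1 for each, the smallest that 3 libraries against 3 allow. The log2 ratio of *Rnf2* to *Ring1* counts had means of 4.82 ± 0.181 in control, 5.11 ± 0.118 in Ins/Ins, and 5.18 ± 0.311 in Ins/Del (SD, n = 3 each), and the lines overlapped (exact permutation p = 0.2 for each mutant line).

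*L3mbtl2* (chromosome 15, 81663889 to 81688315, plus strand) encodes the MBT-domain subunit. Control libraries had 2997, 3061, and 3004 normalized counts, Ins/Ins libraries had 2891, 2837, and 2924, and Ins/Del libraries had 3062, 3058, and 3036. The Ins/Ins libraries were all below the control libraries, while the Ins/Del libraries overlapped them. The log2 fold changes were −0.07 (SE 0.0320, adjusted p = 0.065 by edgeR's quasi-likelihood test) and 0.02 (SE 0.0319, adjusted p = 0.683), and neither passed the threshold. Exons of *Chadl* on the other strand overlap 17.2% of its exonic bases. The other members apart from *Rnf2*, 7 of the 9, have no exon overlap with another annotated gene.

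**Figure D2:**
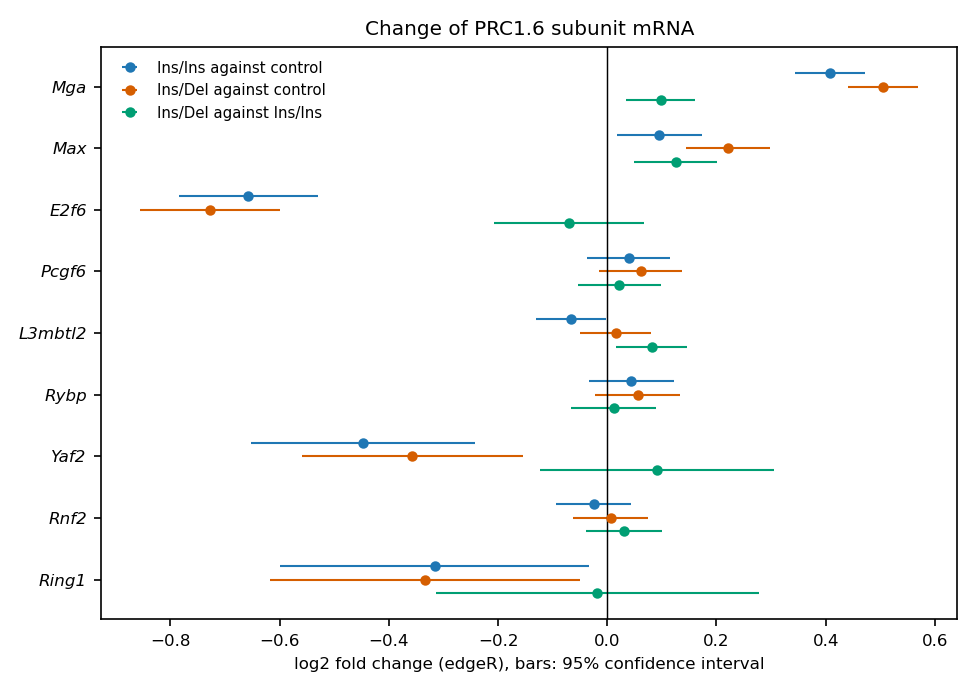
Log2 fold change of each PRC1.6 gene on the x axis for Ins/Ins against control, Ins/Del against control, and Ins/Del against Ins/Ins, from the fit over all 9 libraries. Points are estimates and lines are 95% intervals. *E2f6* lies at −0.66 and −0.73 and *Mga* at 0.41 and 0.50 against control, and the values between the mutant lines stay between −0.07 and 0.13.

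Counted over the 9 genes, 1 rose and 2 fell in Ins/Ins, where 29.0% of all tested genes rose and 29.4% fell. In Ins/Del, 2 rose and 2 fell, where 30.6% of all tested genes rose and 31.9% fell. In both lines 1 gene, *Mga*, rose and 2, *E2f6* and *Yaf2*, fell, beside 25.6% and 26.7% of all tested genes. A decrease of more than 1.5-fold was found for *E2f6* alone among the 9, beside 15.0% of all tested genes in Ins/Ins, 16.7% in Ins/Del, and 13.5% in both. None of the 9 changed by 2-fold in either direction, whereas 8.96% of all tested genes fell by that much in Ins/Ins and 10.2% fell in Ins/Del.

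The members differed widely in how far they changed. Their median absolute log2 fold change was 0.10 in Ins/Ins and 0.22 in Ins/Del, against 0.30 and 0.34 over all tested genes. The signed medians were −0.02 and 0.02. *E2f6*, *Yaf2*, *Mga*, and *Ring1* changed by more than most tested genes in Ins/Ins, with 26.4%, 37.6%, 40.6%, and 48.6% of tested genes changed by more. In Ins/Del the shares were 26.9%, 48.7%, 37.9%, and 50.8%. *Ring1*, with 73 to 123 reads per library, passed the threshold in neither line, so its place in this order is imprecise. For *Rnf2*, 94.7% of all tested genes changed by more in Ins/Ins and 98.9% in Ins/Del, and for *Pcgf6* the shares were 91.9% and 88.9%. Summed over the 9 genes, normalized counts were 21366 to 22523 in control libraries, 23899 to 24822 in Ins/Ins libraries, and 25549 to 25775 in Ins/Del libraries. This sum, not corrected for gene length, was higher in each mutant library than in each control library, mainly through *Mga*. Levels per kb of exonic sequence, also scaled for library size, were summed as well. These sums were 185.4 to 191.3 in control libraries and 189.7 to 197.6 in Ins/Ins libraries, which overlapped. In Ins/Del libraries they were 202.5 to 204.2, above all control libraries.

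More members had groups of libraries that do not overlap than passed the threshold. Of those named next, *L3mbtl2* in Ins/Ins and *Pcgf6* and *Rybp* in Ins/Del did not pass. In Ins/Ins, *Mga* was above and *E2f6*, *Yaf2*, and *L3mbtl2* were below every control library, and such separation was found for 34.9% of tested genes upward and 34.2% downward. In Ins/Del, *Mga*, *Max*, *Pcgf6*, and *Rybp* were above and *E2f6* and *Yaf2* were below, beside 35.9% and 36.9% of tested genes.

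Levels between members were compared per length, as reads per kb of exonic sequence and per 1000000 reads. In control ESCs *Rnf2* was highest at 43.9 ± 0.586, followed by *Mga* at 32.2 ± 2.06, *Max* at 28.7 ± 0.763, and *L3mbtl2* at 27.9 ± 0.321 (SD, n = 3 each). *Rybp* at 20.05 ± 0.388 and *Pcgf6* at 19.3 ± 0.568 came next. *Yaf2* at 6.98 ± 0.511, *E2f6* at 6.75 ± 0.420, and *Ring1* at 1.99 ± 0.218 were far below the others. Within this order *Max* overlapped *L3mbtl2*, *Rybp* overlapped *Pcgf6*, and *Yaf2* overlapped *E2f6*, and the other neighbours were separate.

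The order changed at the top in the mutant lines. In Ins/Ins, *Rnf2* at 43.2 and *Mga* at 42.7 overlapped, and in Ins/Del, *Mga* at 45.7 and *Rnf2* at 44.04 overlapped. The 3 lowest genes per length in control ESCs, *Yaf2*, *E2f6*, and *Ring1*, were also the 3 lowest in each mutant line, at 5.14, 4.28, and 1.59 in Ins/Ins and 5.45, 4.07, and 1.57 in Ins/Del.

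Between the mutant lines themselves, none of the 9 genes passed the threshold in edgeR's quasi-likelihood test, where 10.8% of all tested genes did, 6.17% higher and 4.64% lower in Ins/Del. The count was also 0 with DESeq2, where 1133 of all genes passed. In edgeR's test 3 of the 9 had an unadjusted p under 0.05. The share of all tested genes under that limit was not counted, so these 3 have no background beside them. *Mga* was 0.10 higher in log2 in Ins/Del than in Ins/Ins (95% interval 0.03 to 0.16, adjusted p = 0.0244 by edgeR's quasi-likelihood test), and *L3mbtl2* was 0.08 higher (95% interval 0.02 to 0.15, adjusted p = 0.0707). *E2f6* differed by −0.07 (95% interval −0.21 to 0.07) and *Yaf2* by 0.09 (95% interval −0.12 to 0.30).

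Of 5 other genes whose products are known to join PRC1.6, *Tfdp1*, *Hdac1*, *Hdac2*, and *Wdr5* rose and *Cbx3* fell in both lines. Of all tested genes, 25.6% rose and 26.7% fell in both. *Wdr5*, a WD40 protein shared with histone methyltransferase complexes, went from 4623 ± 48.1 normalized counts in control to 6525 ± 77.5 in Ins/Ins and 6653 ± 179 in Ins/Del (SD, n = 3 each). *Hdac2*, a histone deacetylase, went from 4026 ± 133 to 5585 ± 259 and 6133 ± 131. *Tfdp1*, whose product is the DNA-binding partner of E2F6, had log2 fold changes of 0.10 and 0.18, opposite in sign to *E2f6*.

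Among the 5 genes for the PCGF proteins that define other forms of Polycomb repressive complex 1, *Pcgf2* rose and *Pcgf5* fell in both lines. The shares of all tested genes were 25.6% and 26.7%. *Pcgf5* had 561 ± 51.7 normalized counts in control, 349.6 ± 34.6 in Ins/Ins, and 286 ± 35.6 in Ins/Del (SD, n = 3 each). Its log2 fold changes were −0.69 and −0.98 (adjusted p = 8.2e-10 and 2.31e-13 by edgeR's quasi-likelihood test). *Pcgf6* at 0.04 and 0.06 stood between these paralogues.

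Of the 8 genes for other partners of MAX, 3 rose and 4 fell in Ins/Ins, where 29.0% and 29.4% of all tested genes did. In Ins/Del, 3 rose and 3 fell, where 30.6% and 31.9% did. *Mycn*, which encodes the N-MYC activator, fell from 5553 ± 128 normalized counts in control to 2321 ± 27.3 in Ins/Ins and 1643 ± 36.5 in Ins/Del (SD, n = 3 each). *Mycl* fell from 307 ± 12.7 to 133 ± 9.94 and 132 ± 21.9.

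Of the 7 genes for other E2F proteins, 2 rose and 3 fell in Ins/Ins, where 29.0% and 29.4% of all tested genes did. In Ins/Del, 1 rose and 4 fell, where 30.6% and 31.9% did. *E2f2*, an activating E2F, went from 178 ± 5.32 normalized counts to 431 ± 47.2 and 521 ± 24.1 (SD, n = 3 each), with log2 fold changes of 1.29 and 1.55. *E2f6* and *E2f2* went in opposite directions in both lines, whereas 3 of the 7 fell in both lines as *E2f6* did. Among these 3, *E2f5* had log2 fold changes of −0.52 and −0.75.

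Germline genes in ESCs are also known to be held silent by DNA methylation and by histone H3 lysine 9 methylation. Of 8 genes for these pathways, 3 rose and 5 fell in each line. Of all tested genes, 29.0% rose and 29.4% fell in Ins/Ins, and 30.6% rose and 31.9% fell in Ins/Del. *Dnmt3a*, a de novo DNA methyltransferase, fell from 3208 ± 98.6 normalized counts to 1024 ± 47.3 in Ins/Ins and 1291 ± 11.6 in Ins/Del (SD, n = 3 each), and *Dnmt3b* fell from 10335 ± 324 to 4271 ± 67.3 and 4539.6 ± 121. Its log2 fold changes were −1.65 and −1.31 for *Dnmt3a* and −1.27 and −1.19 for *Dnmt3b*. These were larger in size than the change of any PRC1.6 member.

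**Figure D3:**
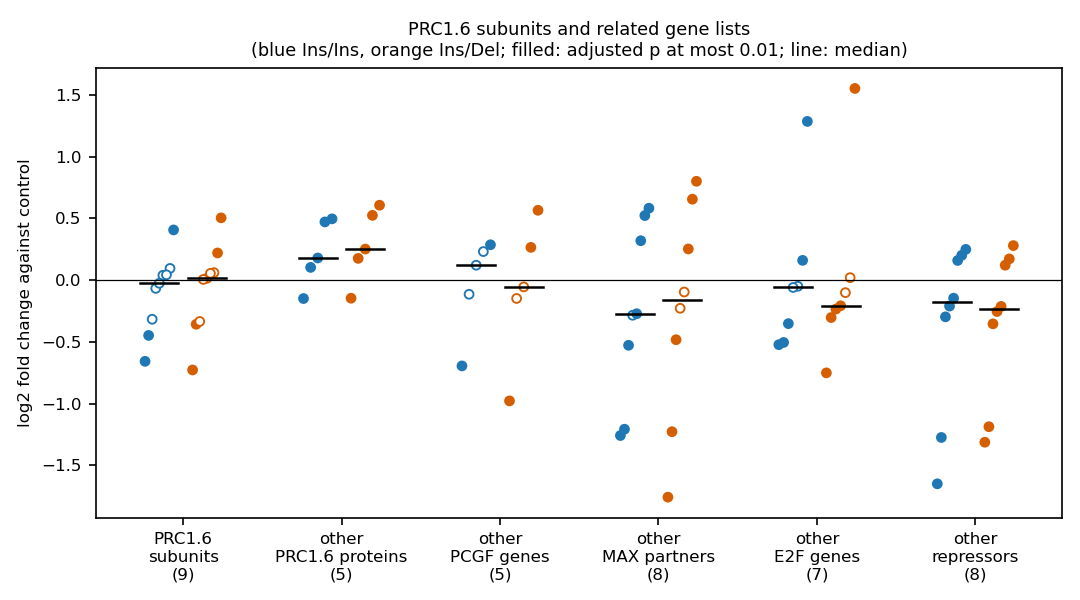
Log2 fold change on the y axis for the 9 PRC1.6 members, their other known partners, the other PCGF genes, other MAX partners, other E2F genes, and genes of other repressive pathways. Blue points are Ins/Ins and orange points Ins/Del against control, filled where the adjusted p was at most 0.01, and lines are list medians. Members lie between −0.73 and 0.50, while *Mycn* reaches −1.76, *Dnmt3a* −1.65, and *E2f2* 1.55.

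The germline list held 29 genes of the kind PRC1.6 is known to hold silent in ESCs, all tested. In Ins/Ins 23 rose and 4 fell, where 29.0% and 29.4% of all tested genes did. In Ins/Del 23 rose and 3 fell, where 30.6% and 31.9% did. In both lines 20 rose by more than 2-fold, where 6.58% of all tested genes did. The medians of the log2 fold changes were 1.44 and 1.74. Summed normalized counts were 8032 to 8251 in control libraries, 20866 to 21245 in Ins/Ins libraries, and 23769 to 24024 in Ins/Del libraries. The list was written with earlier results of these libraries known, so its direction is a description and not independent evidence.

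*Tuba3a*, a testis alpha-tubulin, had 309, 296, and 291 normalized counts in control libraries, 3852, 3792, and 3780.3 in Ins/Ins libraries, and 4805, 4611, and 4809 in Ins/Del libraries. Log2 fold changes of 3.67 and 3.98 had adjusted p = 6.9e-40 and 1.73e-41 by edgeR's quasi-likelihood test. *Tuba3b*, a close copy of *Tuba3a* with which it may share reads, rose from 6.40 ± 1.86 to 84.5 ± 5.75 and 157 ± 15.9 (SD, n = 3 each). *Fkbp6*, needed for meiosis and piRNA loading, went from 62.4 ± 19.5 to 800.4 ± 47.6 and 954 ± 9.11. Mutant libraries lay far above control libraries for each.

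Other genes of the list that rose by more than 2-fold in both lines act in meiosis and germ cells. *Hormad1*, an axis protein, had 262, 263, and 263 normalized counts in control libraries, 1181, 1227, and 1163 in Ins/Ins libraries, and 1242, 1223, and 1284 in Ins/Del libraries. *Smc1b* and *Stag3*, which encode meiotic cohesin subunits, had log2 fold changes of 2.06 and 1.71 in Ins/Ins and of 2.17 and 1.84 in Ins/Del. *Sohlh2*, a germ cell transcription factor, rose by 2.69 and 2.93, *Stra8*, which marks entry into meiosis, by 2.13 and 2.22, and *Dazl*, an RNA-binding protein of germ cells, by 1.44 and 1.78.

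*Mael*, *Zcwpw1*, and *Sycp1* also rose in both lines, by less than 2-fold in at least 1 of them. The remaining genes over 2-fold higher in both lines were *Tex101*, *Tdrd9*, *Asz1*, *Stk31*, *Taf7l*, *Tex11*, *Majin*, *Mov10l1*, *Slc25a31*, *Hsf2bp*, and *Prdm9*. Their log2 fold changes ran from 1.04 for *Prdm9* in Ins/Del to 4.07 for *Tex101* in Ins/Del. *Asz1* had very low counts in control libraries, at 0.855, 7.33, and 2.17, so its log2 fold changes of 1.98 and 3.34 are imprecise.

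Not every germline gene rose, and 2 fell by more than 2-fold in both lines, where 8.10% of all tested genes did. *Sycp3*, of the synaptonemal complex, fell from 1048 ± 18.7 normalized counts to 507 ± 21.8 in Ins/Ins and 403 ± 41.8 in Ins/Del (SD, n = 3 each), with 52.2% of its exonic bases shared with *Chpt1*. *Tdrd1*, of the piRNA pathway, fell from 161 ± 4.05 to 62.7 ± 1.00 and 65.8 ± 7.59. *Tdrkh*, with 36.7% of its exonic bases shared with *Oaz3* on the other strand, had log2 fold changes of −0.71 and −0.38 and passed the threshold in both lines, whereas *Meioc* fell by 0.44 in Ins/Ins and had −0.16 in Ins/Del (adjusted p = 0.0533 by edgeR's quasi-likelihood test). *Ddx4*, a known germline target of repression that was named after its values were seen, had 700.1 ± 38.4, 672 ± 12.2, and 726 ± 30.0 normalized counts, with log2 fold changes of −0.06 and 0.05 that did not pass (adjusted p = 0.352 and 0.406 by edgeR's quasi-likelihood test).

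**Figure D4:**
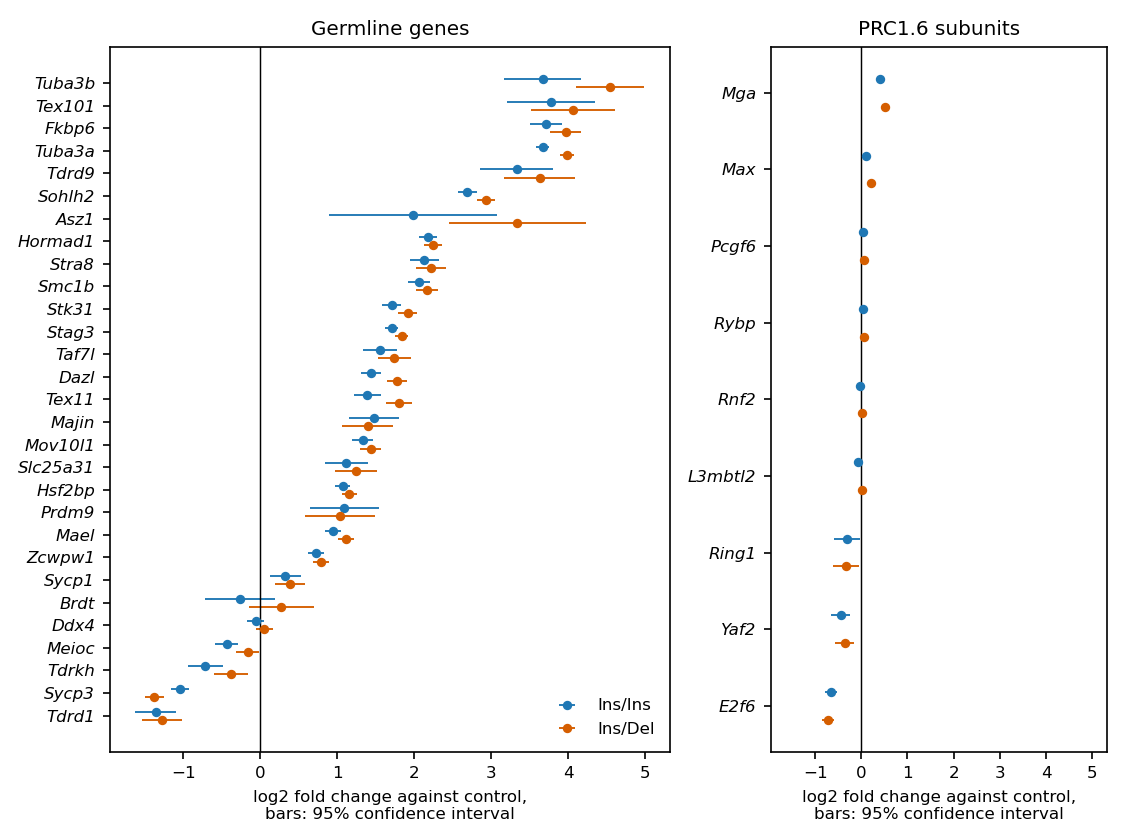
Log2 fold change on a shared x axis for the 29 germline genes and the 9 PRC1.6 members, with Ins/Ins and Ins/Del against control as separate points. Germline genes reach 4.55 for *Tuba3b* in Ins/Del, and the members stay between −0.73 and 0.50.

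The 29 germline genes had median log2 fold changes of 1.44 in Ins/Ins and 1.74 in Ins/Del. Among the most raised, *Tuba3a* and *Fkbp6* had means 12.8 to 15.9 times the control mean. The only PRC1.6 member lowered by more than 1.5-fold was *E2f6*. Its mean was 0.634 of the control mean in Ins/Ins and 0.603 in Ins/Del. For *Mga*, *Max*, *Pcgf6*, *Rybp*, and *Rnf2*, the lower end of the 95% interval of the log2 fold change was −0.09 or above in both lines. Whether the lower *E2f6* and *Yaf2* mRNA had a part in the raised germline genes was not tested, and neither protein levels nor binding of the complex were measured in these libraries.

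The promoter letters were read in windows from 250 bases before to 50 bases after each RefSeq start, on both strands, for 27025 genes in build GRCm38.p6. CACGTG was found for 14 of 27 matched germline genes (51.9%), beside 8.09% of all genes. GGCGGGA was found for 7 of the 27 (25.9%), beside 12.7% of all genes. GGTGTGA, a T-box element, was found for 3 (11.1%), beside 4.6% of all genes. The list was chosen as genes of the kind PRC1.6 is known to silence. These shares are thus not independent of the letters that its subunits recognise, and they describe the list only. CACGTG is its own reverse complement, and matches of different motifs were allowed to overlap. Among the 18 matched genes over 2-fold higher in both lines, 8 held CACGTG (44.4%) and 5 held GGCGGGA (27.8%), and among the other 9 germline genes 6 held CACGTG (66.7%) and 2 held GGCGGGA (22.2%).

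In the printed promoters, chosen for genes of different directions, *Hormad1*, which rose, held both motifs, *Ddx4*, which did not pass the threshold, also held both, and *Sycp3*, which fell, held CACGTG at more than one place. *Tuba3a* and *Tuba3b* held TCCCGCC in a stretch of similar sequence and no CACGTG, and *Fkbp6* held CACGTG and no E2F letters in the printed stretch. Among the 7 members matched to the table, *Max* held CACGTG and none held GGCGGGA or GGTGTGA. *Rybp*, *Yaf2*, *Tex11*, and *Majin* were not matched. Only GGCGGGA and its reverse complement were read as E2F letters, so other forms of an E2F site are not marked or counted. A match is a description of letters and does not say that a factor binds there.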

How the data were processed

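The authors made libraries from mRNA (Kapa HyperPrep), aligned reads to mm10 with STAR 2.7.3, and counted them with HTSeq. The deposited files hold raw counts for each gene symbol and library, neither normalized nor pooled. The annotation and the strand setting are not given in the sources used here, so reads of overlapping genes and close copies are uncertain.

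The counts were scaled here by TMM factors in edgeR 4.0.16 (R 4.3.3), low genes were taken out with filterByExpr, and 1 quasi-likelihood fit (glmQLFit, glmQLFTest) with a term for each of the 3 lines used all 9 libraries. P-values were Benjamini-Hochberg adjusted across 14125 genes, and a gene passed at an adjusted p of at most 0.01. A normalized count is the count over its effective library size, times the mean effective size. The SE is the size of the log2 fold change over the root of its F statistic. The fit was tested on simulated data. Paralogue ratios were tested with scipy 1.17.1. Gene positions and exonic lengths are from GENCODE on GRCm38, and promoters from RefSeq on GRCm38.p6. All 94 symbols, those of the lists with *Rbbp4* and *Rbbp7*, were found in GENCODE.

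The members and lists were chosen with earlier results of these data known. The genes named by rule are all members, the 4 lowest germline genes, and the 3 genes nearest to the most changed member. From each other list the rule took those past the threshold and over 2-fold one way in both mutants. Where there were none, it took up to 2 with the largest changes. Some other genes of the lists are named beside this rule. Among the marker lists, the rule also named *Zfp42*, *Tfcp2l1*, *Dab2*, *Gata4*, *Sox7*, *Cdx2*, *Col1a1*, *Col1a2*, *Col3a1*, and *Thy1*. The replicate number was tried as a block, beside DESeq2 1.42.0, other scalings, another filter, fits of only the groups compared, leaving out each library, and an adjusted p of 0.05.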

Additional observations from a re-analysis of the deposited data

Results flagged for a closer look

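For the direct test of Ins/Del against Ins/Ins, the genes named by rule from the lists were taken with *Rbbp4* and *Rbbp7*. Of these, 19 differed at an adjusted p of at most 0.01 (edgeR's quasi-likelihood test, Benjamini-Hochberg adjusted), 16 higher and 3 lower in Ins/Del. No PRC1.6 member was among the 19, where 10.8% of all tested genes differed. Apart from the members, most of the genes were named because they had passed against control in both lines. The count of 19 thus describes a set chosen on these same data. The values that follow are log2 differences of Ins/Del from Ins/Ins.

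Of the germline genes, *Asz1* differed by 1.36, *Tuba3b* by 0.88, *Tex11* by 0.41, *Dazl* by 0.34, and *Tuba3a* by 0.32. *Meioc* differed by 0.28, *Fkbp6* by 0.26, *Sohlh2* by 0.24, and *Stk31* by 0.21. *Sycp3* differed by −0.33.

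Of the genes of related lists, *Mycn* differed by −0.50, *Dnmt3a* by 0.34, *E2f2* by 0.27, and *Hdac2* by 0.14. Of the markers, *Sox7* differed by 0.59, *Thy1* by 0.34, and *Zfp42* by 0.15. Of genes named outside the rule and not in the count of 19, *Tfap2c* differed by −0.70 and *Pdgfra* by 0.93. *Mael* at 0.17 and *Sox2* at −0.10 also passed. *Rbbp4* itself differed by 0.89 and its paralogue *Rbbp7* by −0.15.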

How the results depend on the processing

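Over 15 alternatives, *Mga* stayed above and *E2f6* below control in both lines, past the threshold each time, with log2 fold changes from 0.39 to 0.57 and from −0.77 to −0.60. Members past the threshold in Ins/Ins numbered 5 at an adjusted p of 0.05 instead of 3, and 3 to 4 with each library left out. With each library left out, 7642 to 8278 of all genes passed there, beside 8252 in the main fit. The share of all tested genes at an adjusted p of 0.05 was not counted for any contrast. In Ins/Del members past the threshold numbered 3 to 5 with each library left out, instead of 4. There 8134 to 8986 of all genes passed, beside 8829 in the main fit. Between the mutant lines 0 members and 1527 of all genes passed in the main fit. The member count became 1 with DESeq2's size factors in edgeR, where 1557 of all genes passed. It was also 1 in the fit of only the groups compared, where 1757 passed. At an adjusted p of 0.05 it was 2, and with each library left out it was 0 to 1. It was 1 without control replicate 3 (*Mga*) and 1 without Ins/Ins replicate 3 (*Max*), where 1646 and 1201 of all genes passed.

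Values that changed sign had not passed the threshold. With total counts, the log2 fold changes of *L3mbtl2* and *Rnf2* in Ins/Del were −0.00123 and −0.0102. With each library left out, *Rnf2* ran from −0.0450 to 0.0206 in Ins/Ins and from −0.0206 to 0.0292 in Ins/Del. Between the mutants, *Rybp* ran from −0.0191 to 0.0271, *Rnf2* from −0.00152 to 0.0521, and *Ring1* from −0.190 to 0.0880. The cause was not tested.

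Correlations of same-numbered libraries between lines ran from −0.03 to 0.06, and those of differently numbered libraries from −0.06 to 0.06. No sign that the numbers pair the samples was seen, which does not exclude a shared batch. With the replicate block, 3 members passed in Ins/Ins and 4 in Ins/Del, where 8225 and 8795 of all genes passed. *Ring1*, with 73 to 123 reads per library, is the member whose precision depth limits most.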

Other observations

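Markers of cell identity shifted in both mutant lines beside the members. Of the naive pluripotency genes, *Zfp42* had log2 fold changes of 0.90 in Ins/Ins and 1.06 in Ins/Del, and *Tfcp2l1* had 0.87 and 0.81. Of the primitive endoderm genes, *Dab2* fell by 1.35 and 1.29 in log2, while *Sox7* rose by 1.63 and 2.22. *Gata6* and *Sox17*, both with low counts, had 0.31 and 0.61 in Ins/Ins, which did not pass. They rose by 1.14 and 1.15 in Ins/Del (adjusted p = 0.000567 and 0.00929 by edgeR's quasi-likelihood test). *Gata4* went from 46.7 ± 14.0 normalized counts in control to 15.9 ± 2.18 in Ins/Ins and 22.1 ± 7.31 in Ins/Del (SD, n = 3 each). *Cdx2*, a trophectoderm gene, had 30.1 ± 8.10 normalized counts in control and 2.40 ± 0.874 and 2.49 ± 1.90 in the mutant lines (SD, n = 3 each).

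Of the fibroblast markers, *Col1a1* went from 287 ± 21.3 normalized counts in control to 17.0 ± 4.02 in Ins/Ins and 24.4 ± 0.122 in Ins/Del (SD, n = 3 each). *Col1a2* had 211 to 271 in control libraries, 5.13 to 7.40 in Ins/Ins, and 6.32 to 12.3 in Ins/Del, and *Col3a1* went from 31.3 ± 1.97 to 0.705 ± 1.22 and 0.982 ± 1.02. *Thy1*, also found on other cell types, went from 45.7 ± 1.10 to 246 ± 13.4 and 312 ± 12.8. *Pdgfra* had log2 fold changes of −0.04 in Ins/Ins, which did not pass, and 0.89 in Ins/Del (adjusted p = 0.00159 by edgeR's quasi-likelihood test). The part of these shifts in the changes of *E2f6*, *Yaf2*, *Mga*, and *Max* was not tested.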
